A study of Mus musculus with 4 samples.

Results

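The genes described here are 40 genes of the G2 phase and of mitosis, chosen as the rows of the deposited count table whose gene name matched a fixed list of 40 symbols. All 40 were found, each on 1 row, among 31247 genes with a read in some library, and all 40 passed the filter on low counts. The RNA came from Pdgfrb-GFP positive cells, called myofibroblasts in the labels, that had been collected by sorting of lungs from mice at postnatal day 7, with 300000 to 350000 cells collected per sample. The 2 control samples are labelled wild type (WT) with the PDGFRb-GFP reporter. The 2 mutant samples, labelled conditional knockout (CKO) of Dnmt1, carry the PDGFRb-GFP reporter, Tbx4-rtTA, Tet-O-Cre and an allele written Dnmt1-D/D. In such a system rtTA, made where Tbx4 is active, switches on Cre when a tetracycline is given, and the labels used here give neither the drug nor its timing. The WT label names neither rtTA nor Cre, so their presence and the Dnmt1 allele cannot be told apart.

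G2/M genes encode the machinery with which a cell enters and completes division. Cyclin-dependent kinase 1 with cyclins A and B starts mitosis, Polo and Aurora kinases build and correct the spindle, kinetochore proteins attach chromosomes to microtubules, the spindle checkpoint delays anaphase until every chromosome is attached, and the anaphase-promoting complex then marks cyclin B and securin for destruction. Transcription of these genes is periodic. They are repressed in resting cells by the DREAM complex and activated in G2 by MuvB with B-Myb and FoxM1, and many carry a cell cycle genes homology region (CHR) and CCAAT boxes, which NF-Y binds, near the start site. In a tissue sample their level mainly follows how many cells are dividing, and in the lung after birth mesenchymal cells still divide while alveoli form. In bulk RNA such as this, fewer dividing cells and less RNA per dividing cell cannot be told apart.

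The start regions of the members are shown first. Many G2/M genes are known to carry the CHR and CCAAT motifs, so their share in a list of such genes is no independent result. RefSeq start windows on GRCm38.p6, from 250 bases before to 50 bases after an annotated start, matched 35 of the 40 members with 38 windows. The CHR core, searched as TTTGAA or TTCGAA on both strands, was present in 30 of the 38 member windows (78.9%) and in 19.2% of all 32851 windows of the same length. CCAAT on either strand was also present in 30 of 38 windows (78.9%) against 37.4% of all windows, and both motifs together in 27 windows (71.1%) against 7.52%. The E2F core, searched as TTCCCGC or TTGGCGC on both strands, was present in 6 member windows (15.8%) and 6.81% of all. A match is a run of letters and not a measured binding site.

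Below are the 120 bases just before the start site, read 5′ to 3′ on the strand of the gene, with matches to the 3 motifs in capitals on either strand. Mki67, Cdk1 and Kif11 had the lowest p-values among the members, Top2a had the most CHR matches, Espl1 had the lowest value in its role, and Ube2c, Cdc20 and Aurka lay near or above the WT level.
Mki67, chr7:135716380-135716499, minus strand: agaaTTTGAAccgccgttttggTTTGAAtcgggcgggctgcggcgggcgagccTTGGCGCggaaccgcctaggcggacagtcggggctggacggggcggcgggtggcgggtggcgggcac
Cdk1, chr10:69352913-69353032, minus strand: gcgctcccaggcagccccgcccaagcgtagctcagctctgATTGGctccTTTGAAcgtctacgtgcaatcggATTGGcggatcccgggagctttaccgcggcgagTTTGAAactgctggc
Kif11, chr19:37376262-37376381, plus strand: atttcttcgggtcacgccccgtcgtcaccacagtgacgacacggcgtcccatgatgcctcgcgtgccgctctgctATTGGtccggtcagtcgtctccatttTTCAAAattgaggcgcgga
Top2a, chr11:99024190-99024309, minus strand: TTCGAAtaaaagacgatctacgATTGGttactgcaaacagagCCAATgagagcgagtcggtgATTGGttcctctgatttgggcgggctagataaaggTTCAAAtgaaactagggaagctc
Espl1, chr15:102296173-102296292, plus strand: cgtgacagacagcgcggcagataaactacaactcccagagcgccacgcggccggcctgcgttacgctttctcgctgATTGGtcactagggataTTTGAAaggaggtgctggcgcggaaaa
Ube2c, chr2:164769809-164769928, plus strand: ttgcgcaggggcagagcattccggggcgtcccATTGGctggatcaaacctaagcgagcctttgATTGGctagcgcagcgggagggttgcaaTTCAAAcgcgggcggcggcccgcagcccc
Cdc20, chr4:118437344-118437463, minus strand: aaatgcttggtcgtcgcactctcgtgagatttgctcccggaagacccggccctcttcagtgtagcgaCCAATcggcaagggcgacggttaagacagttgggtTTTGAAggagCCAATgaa
Aurka, chr2:172370571-172370690, minus strand: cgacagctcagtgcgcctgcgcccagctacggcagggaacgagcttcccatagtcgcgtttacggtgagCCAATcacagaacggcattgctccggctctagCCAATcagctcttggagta

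The Cdk1 stretch holds 2 CHR cores and 2 CCAAT boxes, and the Top2a stretch 2 CHR cores and 3 CCAAT boxes. The CHR core of Aurka lies outside the printed bases, just after the annotated start. In the members as a whole the CHR core sat close to the start, with 27 of 38 windows (71.1%) holding it within 50 bases on either side against 5.31% of all windows. CCAAT boxes 30 to 36 bases apart occurred in 8 member windows (21.1%) and in 1.87% of all windows. That spacing was chosen after the positions were seen, so the excess in the same windows is no independent finding. In the 37 windows of S phase genes the CHR core was present in 16.2% and the E2F core in 54.1%. In the 68 windows of other mitosis genes the figures were 55.9% and 22.1%. CCAAT was present in 59.5% of the S phase and 67.6% of the other mitosis windows, and the spaced pair in 8.11% and 11.8%.

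**Figure D1:**
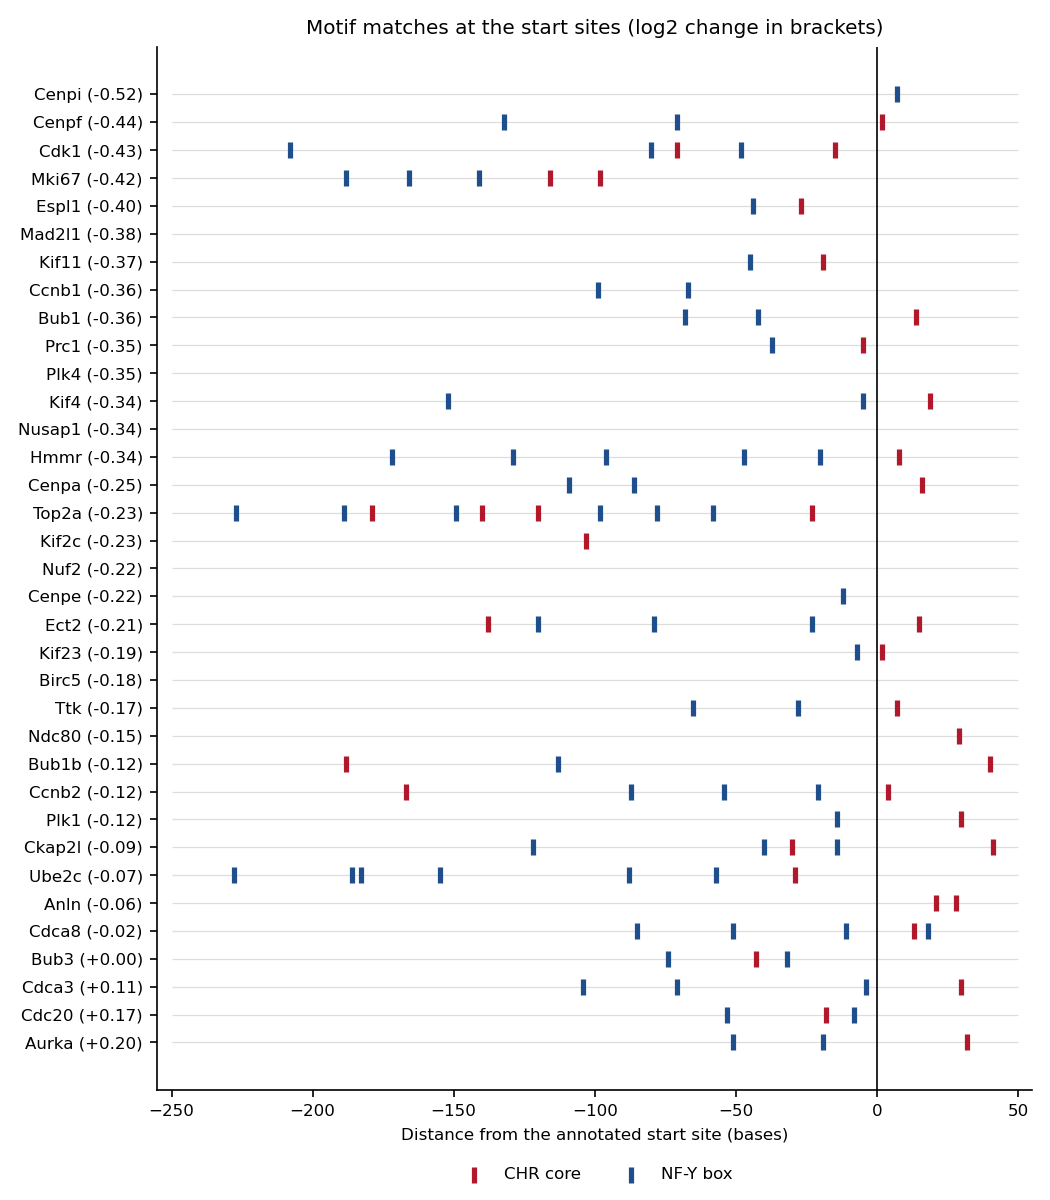
Positions of the CHR core (red) and of CCAAT, the NF-Y box (blue), in bases from the annotated start, in 1 RefSeq window for each of 35 members, ordered by log2 change. Most CHR cores lie within 50 bases of the start, in members with values below 0 and in members near or above 0 alike.

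Members with and without the CHR core were compared only as a description. The 27 members with a CHR core had log2 changes from -0.44 to 0.20, with a median of -0.19 and 24 below 0. The 8 members with none of these letters in their window (Birc5, Ccnb1, Cenpe, Cenpi, Mad2l1, Nuf2, Nusap1 and Plk4) had values from -0.52 to -0.18, with a median of -0.34. The 4 members with fitted values above 0 included Aurka, Cdc20 and Cdca3, all with a CHR core, and Kif20a, for which no window was listed.

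Depth ranged from 23071657 to 26420648 counted reads per library, and libraries are named by genotype and by a letter in the order of the columns. The column names of WT B, CKO A and CKO B open with a shared number and that of WT A does not, and the meaning of that number was not given. WT B had reads on more genes (27643) than the other libraries (21883 to 22532). Dnmt1, the maintenance DNA methyltransferase that was targeted, stood at 144 and 115 CPM (counts of a gene scaled to library size with TMM factors) in WT and 78.1 and 29.5 CPM in CKO (library A before B here and below). The CKO libraries thus differed from each other, and edgeR did not call Dnmt1 over the 4 libraries (adjusted p = 0.310) but did with either CKO library alone (adjusted p = 3.82e-05 without CKO A and 0.0401 without CKO B). Pdgfrb, the gene of the sorting reporter, stood at 507 and 477 CPM in WT and 374 and 317 CPM in CKO. It did not pass in edgeR (adjusted p = 0.0546) but was called lower by DESeq2 (0.00734) and by edgeR with library size alone (0.0372), with no filter (0.0151) and without CKO A (0.0220). Y-linked reads were found in CKO A, with 2494 of Ddx3y, and were 0 in the other libraries, so the sex of the animals differed within the CKO genotype. All 12 myofibroblast and lung mesenchyme markers were detected, at summed levels of 67600 to 67700 CPM in WT and 77500 to 89300 in CKO. Of these markers edgeR called 1 higher in CKO, the contractile gene Cnn1, and DESeq2 called 4 higher and 3 lower. Over all tested genes edgeR called 4.85% higher and 2.75% lower. DESeq2 called 2.76% lower, and 1373 of 16708 genes in either direction.

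None of the 40 members passed edgeR's test between genotypes, and most values were lower in CKO than in WT. In edgeR's quasi-likelihood test, with p-values adjusted over the 15210 genes tested, 0 of 40 members were lower and 0 higher in CKO at an adjusted p under 0.05, where 2.75% of all tested genes were lower and 4.85% higher. With no adjustment, at p under 0.05, 13 members (32.5%) lay lower and 0 lay higher, against 12.1% and 13.1% of all tested genes. Both CKO libraries lay below both WT libraries for 19 members (47.5%), against 29.3% of tested genes, and above both for 0 members, against 27.7%. Fitted log2 changes ran from -0.52 to 0.20, with a median of -0.23 where all tested genes had -0.01, and 36 of 40 were below 0 (90.0%, against 50.9%). DESeq2 called 1 member lower, Mki67 (adjusted p = 0.0488), where it called 2.76% of genes lower, and limma-voom called 0 where it called 2.29%. Scaling by library size alone also called Mki67 lower (adjusted p = 0.0496, with 3.64% of genes lower), and with no filter on low counts Cenpf was called (adjusted p = 0.0467, with 2.93% of genes lower). Without WT A or without WT B 0 members were called lower, where 1.33% and 0.574% of genes were. The authors' deposited table gives no member an adjusted p under 0.05 and lists 33 of the 40 with a log2 fold change below 0.

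The precision of these libraries bounds the size of a change. The standard error of a member's log2 change was between 0.11 and 0.24, with a median of 0.15, on 96 to 8153 reads per member and library. The 95% interval lay wholly below 0 for 13 members and wholly above 0 for none of the 40. These are the 13 members with an unadjusted p under 0.05, as interval and p-value come from the same test. The intervals are not adjusted for the number of genes. It reached a 1.5-fold fall for 21 members and did not for 19, and it reached a 2-fold fall for 0. Only Aurka had an interval that reached a 1.5-fold rise.

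**Figure D2:**
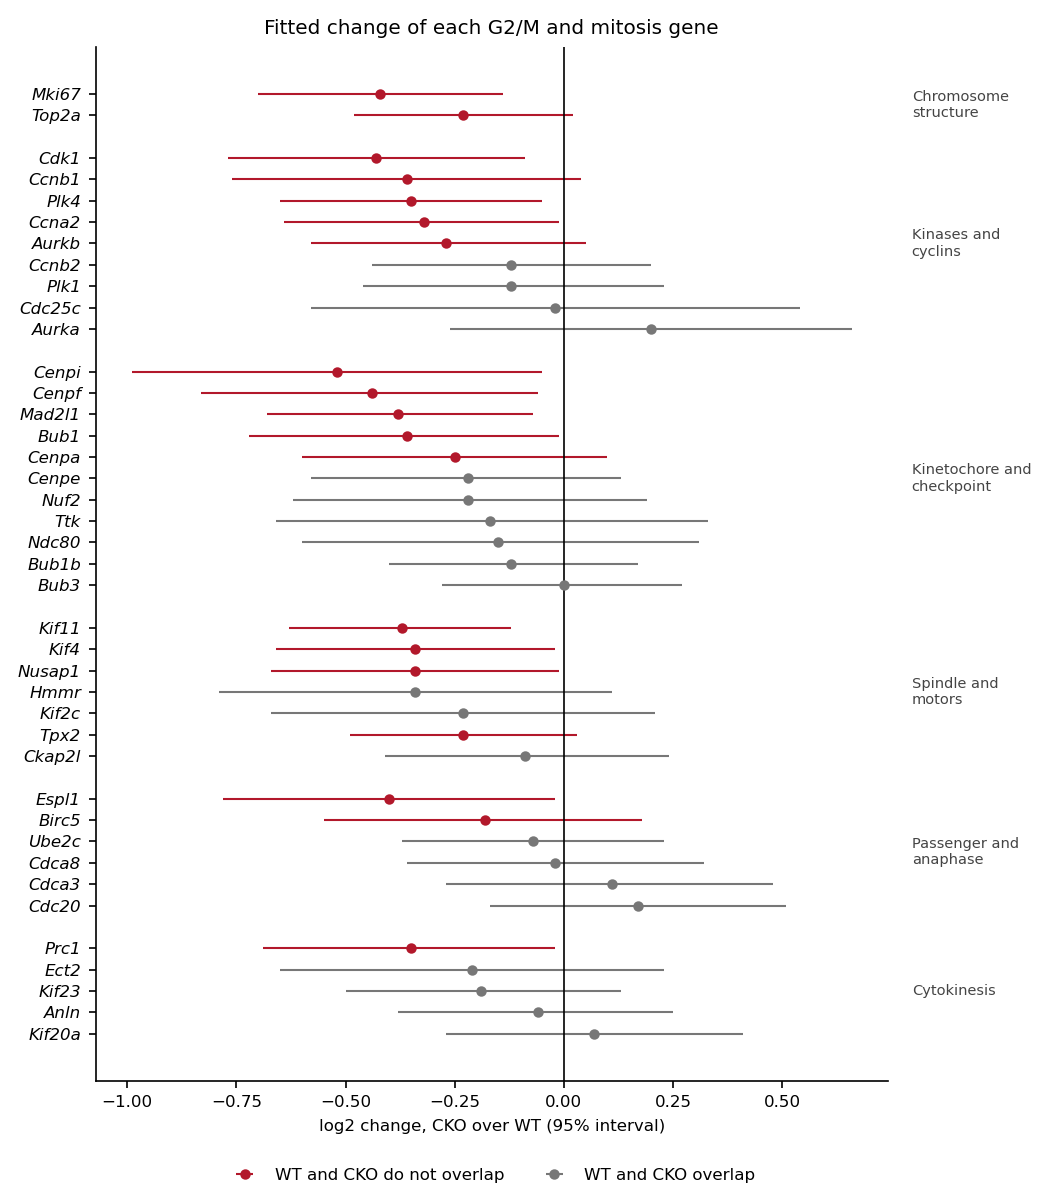
Fitted log2 change of CKO over WT for each of the 40 members with its 95% interval (edgeR), grouped by role. Red marks the 19 members whose CKO libraries both lie below both WT libraries; 13 of the intervals lie wholly below 0, and no interval lies wholly above it.

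The WT libraries differed from each other by about as much as either CKO library differed from WT A. WT B held the highest level of 28 members, WT A of 7, CKO B of 4 and CKO A of 1. The lowest level was in CKO A for 21 members, in CKO B for 14, in WT A for 5 and in WT B for 0. Over the 40 members the median log2 difference was -0.16 for WT A against WT B, -0.14 for CKO A against WT A and -0.16 for CKO B against WT A, while it was -0.31 and -0.25 for CKO A and CKO B against WT B. Over all tested genes these medians lay between -0.03 and 0.00. Within the shared column number, which leaves WT B as the lone WT library, the members had a median log2 change of -0.29, and leaving out WT B in place of WT A gave -0.14.

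**Figure D3:**
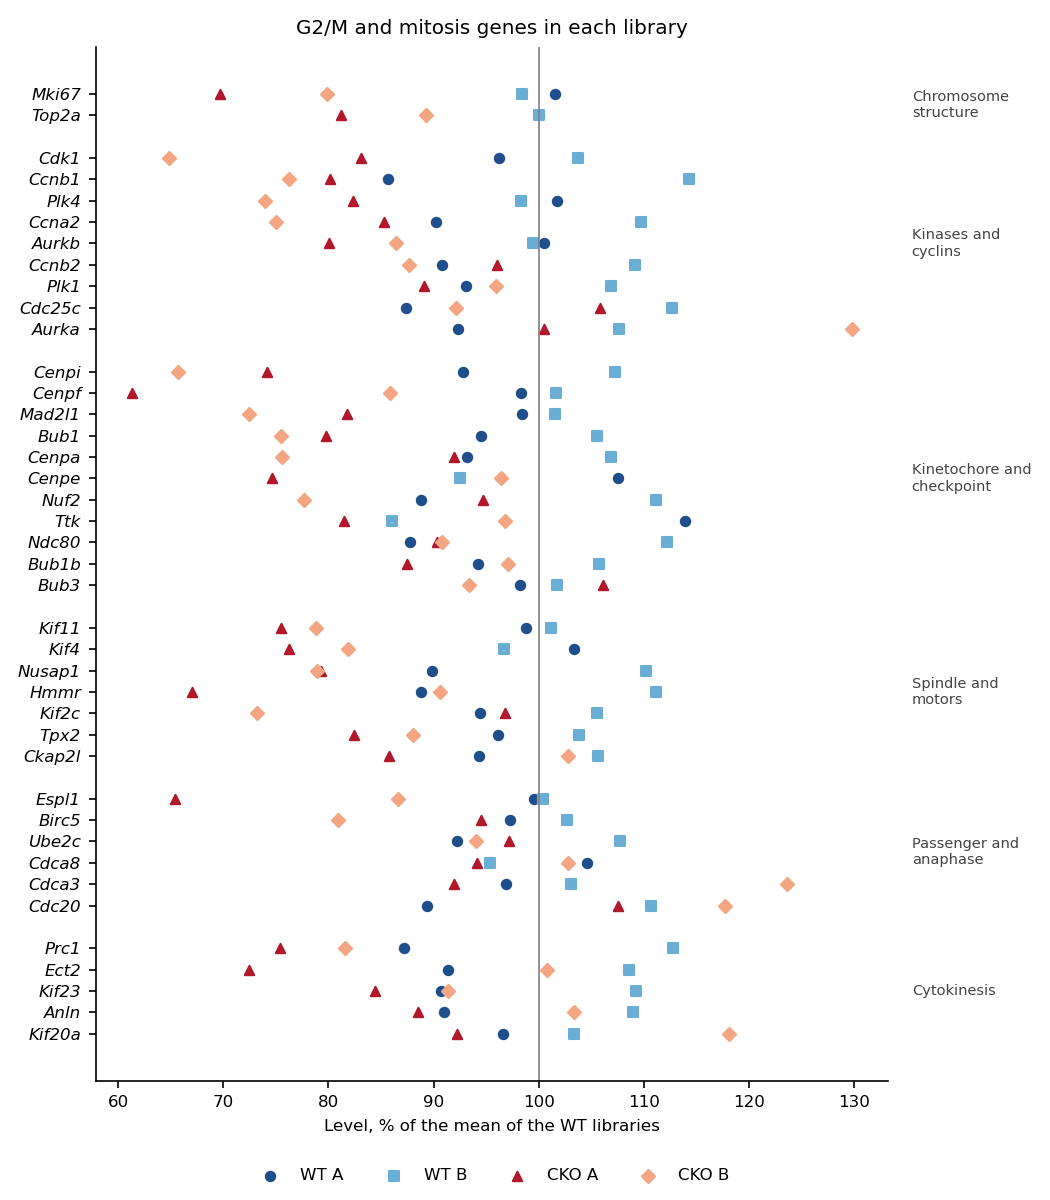
Level of each member in the 4 libraries as a percentage of the mean of the WT libraries (vertical line), grouped by role. The WT B squares lie to the right of the WT A circles for 33 members, and the CKO symbols lie lowest for most members, down to 61.2% for Cenpf in CKO A.

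Mki67 and Top2a, which encode a surfactant-like coat protein of mitotic chromosomes and the topoisomerase that untangles sister chromatids, were the most abundant members by read count. Mki67 (ENSMUSG00000031004, chromosome 7, 135689784 to 135716361, GRCm38) stood at 318 and 308 CPM in WT and 218 and 250 CPM in CKO. Both CKO libraries lay below both WT libraries, at 69.7% and 79.9% of the WT mean. On the log2 scale Mki67 differed by -0.42 ± 0.12 (SE, 2 libraries of each genotype), with a 95% interval from -0.70 to -0.14 and an edgeR adjusted p of 0.0744. Top2a (chromosome 11, 98992943 to 99024189) stood at 149 CPM in both WT libraries and at 121 and 133 CPM in CKO. Its groups did not overlap either, and its log2 change of -0.23 ± 0.11 had an edgeR adjusted p of 0.241.

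Of the 9 kinase, phosphatase and cyclin genes, 8 had values below 0 (88.9%, against 50.9% of all tested genes). An unadjusted p under 0.05 was reached by 3, all lower (33.3%, against 12.1%), and the median log2 change was -0.27. Cdk1, the kinase that drives entry into mitosis (chromosome 10, 69335146 to 69352938), stood at 33.1 and 35.7 CPM in WT and 28.6 and 22.3 CPM in CKO. CKO B was the lowest library and the groups did not overlap. The log2 change was -0.43 ± 0.15 (edgeR adjusted p = 0.115). It was -0.60 without CKO A, a fit that called Cdk1 (adjusted p = 0.0181) and called 3.38% of its tested genes lower, and -0.26 without CKO B (adjusted p = 0.274).

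Plk4, which starts centriole duplication (chromosome 3, 40800019 to 40816883), stood at 26.8 and 25.9 CPM in WT A and WT B and at 21.7 and 19.5 in CKO A and CKO B. Ccna2, encoding cyclin A2 of S phase and G2 (chromosome 3, 36564865 to 36572150), stood at 43.9, 53.4, 41.5 and 36.5 CPM in the same order. For both genes the groups did not overlap, though for Ccna2 the gap between WT A and CKO A was smaller than that between the WT libraries. Their log2 changes were -0.35 ± 0.13 and -0.32 ± 0.14 (edgeR adjusted p = 0.140 and 0.190). Ccnb1, encoding cyclin B1, and Aurkb, the kinase of the chromosomal passenger complex, also had non-overlapping groups, with log2 changes of -0.36 and -0.27. For Ccnb1 too the gap between WT A and CKO A was smaller than that between the WT libraries.

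Aurka, the kinase that matures centrosomes (chromosome 2, 172356190 to 172370535), had the highest value of the 40 members. It stood at 8.25 and 9.62 CPM in WT and 8.98 and 11.6 CPM in CKO. The groups overlapped, and the log2 change of 0.20 ± 0.20 had an interval from -0.26 to 0.66 (edgeR adjusted p = 0.580). The cyclin B2 gene Ccnb2 and the Polo kinase gene Plk1 both stood at -0.12, and Cdc25c, the phosphatase that activates Cdk1, at -0.02, each with overlapping groups.

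All 11 kinetochore and spindle checkpoint genes had values at or below 0, where 50.9% of all tested genes lay below 0. Of the 11, 4 were lower at an unadjusted p under 0.05 (36.4%, against 12.1%), and the median log2 change was -0.22. Mad2l1, a checkpoint protein that holds back Cdc20 (chromosome 6, 66535390 to 66547220), stood at 25.4 and 26.2 CPM in WT and 21.1 and 18.7 CPM in CKO. Bub1, a checkpoint kinase (chromosome 2, 127801122 to 127831865), stood at 15.4, 17.2, 13.0 and 12.3 CPM in the same order. Neither gene had overlapping groups, and the log2 changes were -0.38 ± 0.13 and -0.36 ± 0.15 (edgeR adjusted p = 0.128 and 0.184).

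Cenpf, a large protein of the outer kinetochore that accumulates in G2 (chromosome 1, 189640606 to 189688086), stood at 46.7 and 48.3 CPM in WT and 29.1 and 40.8 CPM in CKO. Here CKO A was the lowest library, the reverse of Cdk1. The log2 change was -0.44 ± 0.16 (edgeR adjusted p = 0.143). Without CKO B it was -0.70, a fit that called Cenpf (adjusted p = 0.0102) and called 2.62% of its tested genes lower, and without CKO A it was -0.19 (adjusted p = 0.403).

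Cenpi, a subunit of the inner kinetochore on the X chromosome (134308084 to 134362639), had the lowest fitted value of the members. It stood at 7.24 and 8.37 CPM in WT and 5.79 and 5.13 CPM in CKO, and the log2 change was -0.52 ± 0.20 (edgeR adjusted p = 0.164). The groups did not overlap. Bub3, a checkpoint protein with further roles outside mitosis (chromosome 7, 131560222 to 131571895), stood at 64.8, 67.1, 70.0 and 61.6 CPM in the same order. Its CKO libraries lay on either side of WT and its log2 change was 0.00 ± 0.12, with an interval from -0.28 to 0.27. Of the others, Cenpa, the centromeric histone H3 variant, stood at -0.25 with groups that did not overlap. For Cenpa the gap between WT A and CKO A was smaller than that between the WT libraries. The motor Cenpe, the kinases Bub1b and Ttk, and Ndc80 and Nuf2, which form the microtubule-binding complex, lay between -0.22 and -0.12 with overlapping groups.

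The 7 spindle and motor genes all had values below 0, where 50.9% of all tested genes did. Of the 7, 3 were lower at an unadjusted p under 0.05 (42.9%, against 12.1%), and the median log2 change was -0.34. Kif11, the motor that pushes spindle poles apart (chromosome 19, 37376403 to 37421859), stood at 38.5 and 39.4 CPM in WT and 29.4 and 30.7 CPM in CKO. The replicates of each genotype lay close together and the groups did not overlap. The log2 change was -0.37 ± 0.11 (edgeR adjusted p = 0.0806), and it lay between -0.40 and -0.31 in every fit that left out 1 library.

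Kif4, a chromosome-bound motor on the X chromosome (100625737 to 100727214), stood at 20.2, 18.9, 14.9 and 16.0 CPM in WT A, WT B, CKO A and CKO B. Nusap1, which bundles spindle microtubules (chromosome 2, 119618298 to 119651244), stood at 23.8, 29.2, 21.0 and 20.9 CPM in the same order. Groups did not overlap for either gene, and both had a log2 change of -0.34 ± 0.14 (edgeR adjusted p = 0.180 and 0.191). Tpx2, which activates Aurka on the spindle, stood at -0.23 without overlap. Hmmr, a spindle pole protein, stood at -0.34 and Kif2c, which depolymerises microtubules at kinetochores, at -0.23, both with overlap. The highest value of this role was that of Ckap2l, a mitotic spindle protein (chromosome 2, 129268210 to 129297212), at 26.5, 29.7, 24.1 and 28.9 CPM, with a log2 change of -0.09 ± 0.14 and overlapping groups.

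The 6 genes of the chromosomal passenger complex, of anaphase and of cohesion release had the median nearest to 0, at -0.04. Values were below 0 for 4 (66.7%, against 50.9% of all tested genes). At an unadjusted p under 0.05, 1 was lower (16.7%, near the 12.1% of all tested genes). The gene under 0.05 was Espl1, encoding separase, which cuts cohesin (chromosome 15, 102296266 to 102324357). It stood at 21.6 and 21.8 CPM in WT and 14.2 and 18.8 CPM in CKO, without overlap, with CKO A the lowest. The log2 change was -0.40 ± 0.17 (edgeR adjusted p = 0.182). Birc5, encoding survivin of the passenger complex (chromosome 11, 117849251 to 117855743), stood at 14.3, 15.1, 13.9 and 11.9 CPM in the same order, also without overlap, but with WT A and CKO A close together (log2 change -0.18 ± 0.16, edgeR adjusted p = 0.523).

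Cdc20, the activator of the anaphase-promoting complex (chromosome 4, 118432901 to 118437352), stood at 20.1 and 24.9 CPM in WT and 24.2 and 26.5 CPM in CKO. The groups overlapped and the log2 change was 0.17 ± 0.15, with an interval from -0.17 to 0.51 (edgeR adjusted p = 0.516). Ube2c, the ubiquitin-conjugating enzyme of the same complex, stood at -0.07, the passenger protein Cdca8 (borealin) at -0.02 and Cdca3, which triggers entry into mitosis, at 0.11, all with overlapping groups. The intervals of Cdc20 and Cdca3 did not reach a 1.5-fold fall, with lower bounds of -0.17 and -0.27.

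Among the 5 cytokinesis genes 4 had values below 0, as did 50.9% of all tested genes, and the median log2 change was -0.19. At an unadjusted p under 0.05, 1 of the 5 was lower, where 12.1% of all tested genes were. With 5 genes, 1 such gene cannot be told apart from that share. The groups did not overlap for 1 of the 5, with CKO lower, against 29.3% of all tested genes. Prc1, which crosslinks the microtubules of the central spindle (chromosome 7, 80294450 to 80316259), stood at 32.6 and 42.2 CPM in WT and 28.2 and 30.5 CPM in CKO. The groups did not overlap, but the WT libraries differed from each other by more than WT A did from either CKO library. The log2 change was -0.35 ± 0.15 (edgeR adjusted p = 0.182), and leaving out WT A or WT B gave -0.51 or -0.14.

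Kif23, the motor of the centralspindlin complex (chromosome 9, 61915905 to 61946774), stood at 27.4, 33.0, 25.5 and 27.6 CPM in WT A, WT B, CKO A and CKO B, with overlap. Ect2, which activates RhoA at the cleavage furrow (chromosome 3, 27097222 to 27153878), stood at 16.4, 19.5, 13.0 and 18.1 CPM, with only CKO A below WT. Kif20a, a motor of the central spindle (chromosome 18, 34624613 to 34633277), stood at 26.9, 28.8, 25.7 and 32.9 CPM, so that the CKO libraries lay on either side of WT. Their log2 changes were -0.19, -0.21 and 0.07, and that of Anln, the scaffold anillin of the contractile ring, was -0.06, also with overlap.

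Exons of 12 members overlap those of another annotated gene, and whether counting used strand is not given in the sources used here. The largest overlap was 1271 bases, between Kif20a and Cdc23 on the opposite strand, and Cdc23 had up to 1509 reads in a library. Others were Prc1 with Rccd1 (911 bases), Kif4 with Pdzd11 (832 bases), Ccna2 with Exosc9 (510 bases) and Cdca8 with 9930104L06Rik (232 bases). Cdc20 shares 53 bases with Elovl1, which had up to 2049 reads in a library. If counting did not use strand, reads of such pairs cannot be told apart. The values of the members named here are then less certain than those of the 28 members with no overlap.

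Levels can be compared between genes only per length. On the scale of CPM per kilobase of exon, the WT mean level was highest for Mki67 (31.1), followed by Ccnb2 (18.8), Top2a (16.6), Cdc20 (12.0) and Ccna2 (11.9). It was lowest for Cdc25c (0.981), Ndc80 (1.33) and Cenpi (1.37). In CKO the mean level of Mki67 was 23.2 and that of Cdc20 was 13.6, so that Cdc20 stood further above Ccna2 (9.54) than in WT, though the difference between these genes was not tested. Mki67 was the highest in WT and in CKO, and the lowest in CKO were Cenpi (0.961), Cdc25c (0.970) and Ndc80 (1.20), an order that differs from WT, where Cdc25c was the lowest. These lengths are the union of GENCODE M21 exons. The lengths in the deposited table differ from them for all 40 members, at a median of 1.72 times the union length, and would give other levels per kilobase.

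**Figure D4:**
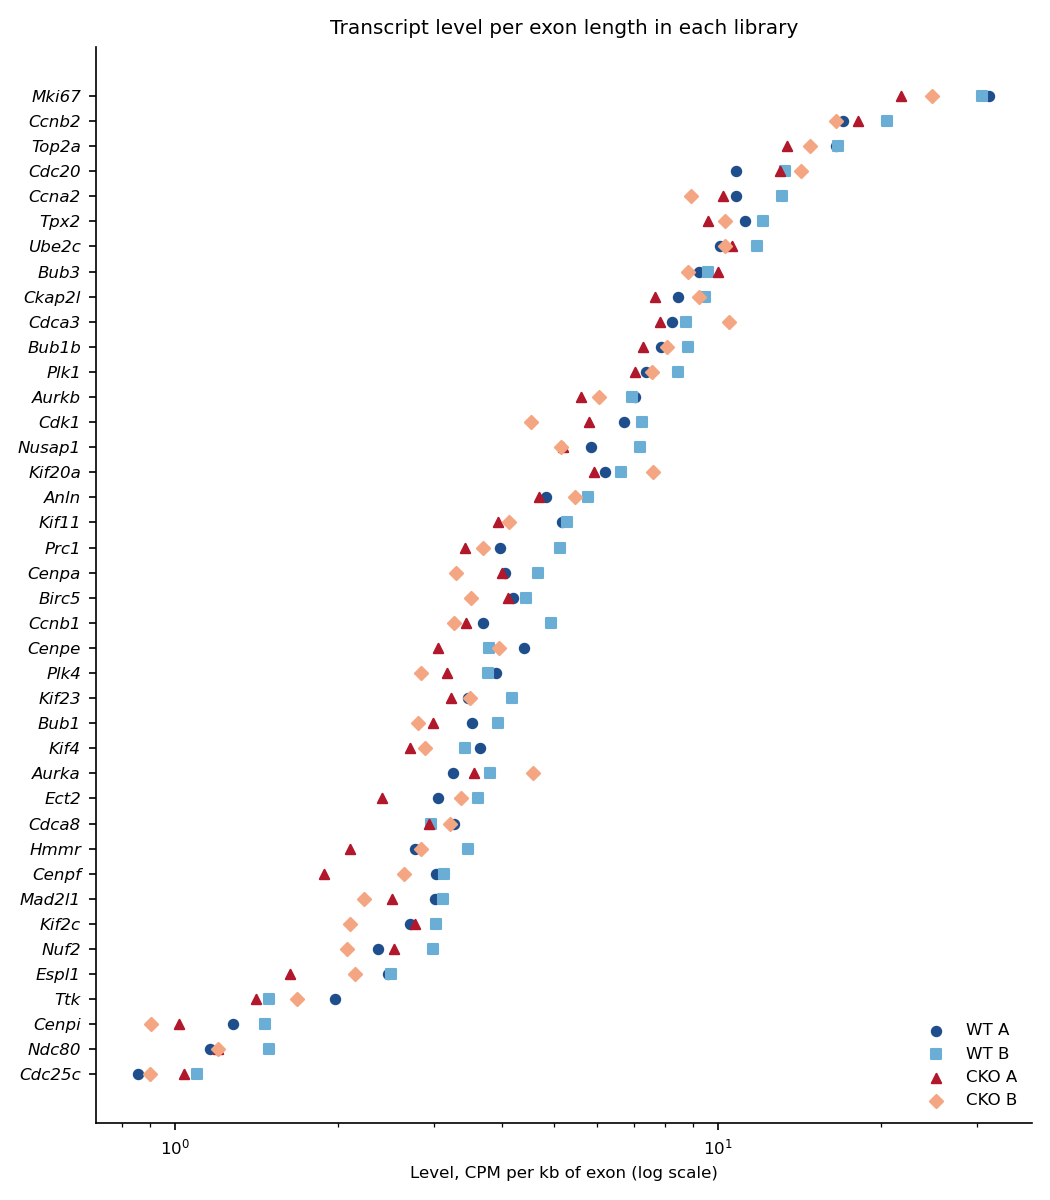
Level of each member in the 4 libraries, in CPM per kilobase of exon on a log axis, ordered by the WT mean. WT means run from 0.981 for Cdc25c to 31.1 for Mki67, and in each library Mki67 is the highest.

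Other mitosis genes also lay mostly below WT. Of 75 such genes, all tested, 2 passed and were lower in CKO, 0 were higher, while an unadjusted p under 0.05 was reached by 12 with lower (16.0%) and 1 with higher values. The share called lower was near the 2.75% of all tested genes, and the share lower with no adjustment stood beside 12.1%. Their median log2 change was -0.22, and 64 of 75 were below 0. Ncaph, a condensin subunit that helps to fold mitotic chromosomes, stood at 36.5 and 36.1 CPM in WT and 25.8 and 22.3 CPM in CKO, 1.51-fold lower (log2 change -0.60 ± 0.13, edgeR adjusted p = 0.0300). Iqgap3, a scaffold protein of dividing cells, was 1.37-fold lower (edgeR adjusted p = 0.0491). Hjurp, the chaperone that loads Cenpa onto centromeres, had a log2 change of -0.46 and did not pass in edgeR (adjusted p = 0.0521), while DESeq2 called it lower (adjusted p = 0.0481), as did edgeR with library size alone (0.0432) and with no filter (0.0305). Leaving out 1 library ended the call of Ncaph in 3 of 4 fits (adjusted p = 0.157, 0.179 and 0.0569 without WT A, WT B and CKO B in turn) and that of Iqgap3 likewise (0.274, 0.276 and 0.101 without WT A, WT B and CKO A), and DESeq2 did not call Iqgap3 (adjusted p = 0.117). Ncaph is also the 1 called gene among 17 condensin and cohesin genes, whose median was -0.12. It was also the 1 gene of that list lower at an unadjusted p under 0.05 (5.88%, against 12.1% of all tested genes). Stag2 and Smc4, of cohesin and condensin, came next there by p-value, at -0.21 and -0.18 (edgeR adjusted p = 0.254 and 0.350). Of 17 genes of the anaphase-promoting complex and of proteins that act on or with it 0 passed in edgeR and in DESeq2. An unadjusted edgeR p under 0.05 was reached by 0 of them, where 12.1% of all tested genes were lower and 13.1% higher. Their median was -0.07. The lowest p-values in that list were those of Anapc2, Cdc26 and Fbxo5, with log2 changes of -0.22, -0.31 and -0.32, and Cdc26 was called when CKO A was left out (adjusted p = 0.0258).

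Among 22 transcription regulators of these genes 1 passed, and it was lower in CKO, as were 2.75% of all tested genes. With no adjustment 5 (22.7%) were lower at an edgeR p under 0.05, against 12.1% of all tested genes. E2f8, a repressor of the E2F family made in S phase, stood at 16.2 and 15.7 CPM in WT and 10.6 and 9.75 CPM in CKO, 1.57-fold lower (log2 change -0.65 ± 0.15, edgeR adjusted p = 0.0438). Foxm1, the forkhead activator of G2/M genes, stood at 51.2 and 53.0 CPM in WT and at 76.9% and 81.8% of their mean in CKO A and CKO B, without overlap (log2 change -0.33 ± 0.11, edgeR adjusted p = 0.107). Mybl2, encoding B-Myb, stood at 12.8 and 10.1 CPM in WT and 9.40 and 5.52 CPM in CKO, with CKO B the lowest (log2 change -0.61 ± 0.27, edgeR adjusted p = 0.209). Without CKO A it was called (adjusted p = 0.0182). Tfdp2, a dimer partner of E2F proteins, stood at 59.1 and 52.4 CPM in WT and 41.3 and 39.3 CPM in CKO, and E2f7, the closest relative of E2f8, at 20.1 and 16.0 CPM in WT and 13.8 and 9.97 CPM in CKO. Neither had overlapping groups and neither passed (edgeR adjusted p = 0.0504 and 0.113). Without CKO A both were called (adjusted p = 0.0448 and 0.0217), with no filter likewise (0.0286 and 0.0292), and Tfdp2 also with library size alone (0.0370). Leaving out WT A, WT B or CKO B ended the call of E2f8 (adjusted p = 0.244, 0.218 and 0.0874), as did DESeq2 (0.0925). The list had a median of -0.10, with 17 of 22 below 0.

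Among genes that act before mitosis single genes were called in both directions. Over all tested genes edgeR called 2.75% lower and 4.85% higher. Of 7 Cdk inhibitor genes 2 passed, both higher in CKO, led by Cdkn1a, which encodes p21, at 34.5 and 39.2 CPM in WT and 121 and 162 CPM in CKO, 3.84-fold higher (edgeR adjusted p = 0.00177). That call held in every fit that left out 1 library. Cdkn2a, the Ink4a and Arf gene, was 3.45-fold higher from a low level, at 0.571 and 1.02 CPM in WT and 2.66 and 2.89 CPM in CKO (edgeR adjusted p = 0.0364). Its neighbour Cdkn2b stood at 0.615 and 1.06 CPM in WT and 2.09 and 2.63 CPM in CKO and did not pass (edgeR adjusted p = 0.0702), though it did with no filter (0.0134). Of 8 genes for G1 cyclins and their kinases 1 was lower and 1 higher. Cdk6, a kinase partner of D cyclins, stood at 200 and 148 CPM in WT and 97.0 and 88.0 CPM in CKO, 1.88-fold lower (edgeR adjusted p = 0.0162). Ccnd1, encoding cyclin D1, stood at 86.1 and 87.7 CPM in WT and 117 and 129 CPM in CKO, 1.41-fold higher (edgeR adjusted p = 0.0353). Ccne1, encoding cyclin E1, had a log2 change of 0.45 and did not pass (edgeR adjusted p = 0.0976). Of 40 S phase genes 1 was lower, the thymidine kinase gene Tk1 at 21.6 and 22.4 CPM in WT and 15.1 and 14.8 CPM in CKO (1.47-fold, edgeR adjusted p = 0.0450), and 0 were higher, with a median of -0.12 and 29 of 40 below 0. With no adjustment 2 S phase genes (5.0%) were lower at an edgeR p under 0.05, against 12.1% of all tested genes. Gins3, of the replicative helicase, and Pola1, of DNA polymerase alpha, had the next lowest p-values there, with log2 changes of -0.80 and -0.25 (edgeR adjusted p = 0.0935 and 0.255). Leaving out WT A, WT B or CKO B each ended the calls of Cdkn2a, Ccnd1 and Tk1, leaving out CKO B that of Cdk6 (adjusted p = 0.0631), and DESeq2 did not call Tk1 (adjusted p = 0.104).

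**Figure D5:**
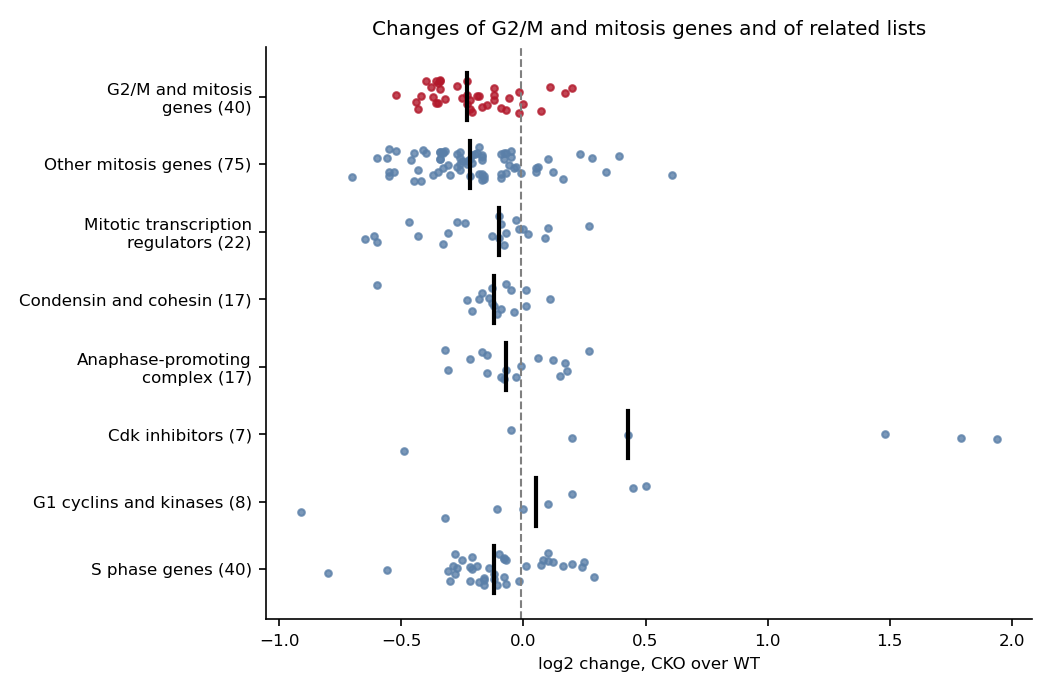
Log2 change of CKO over WT for the 40 members (red) and the genes of 7 related lists (blue, number of tested genes in brackets); short black lines are medians and the dashed line is the median of all tested genes. The medians of the members (-0.23) and of other mitosis genes (-0.22) lie left of the dashed line, and that of the Cdk inhibitors (0.43) lies right of it.

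Markers of other cell types moved with genotype in some lists, where edgeR called 2.75% of all tested genes lower and 4.85% higher. The immune list had 14 markers, of which 12 could be tested and 5 passed with higher and 0 with lower values, and its summed level was 37.1 to 50.2 CPM in WT and 61.1 to 87.1 in CKO, with Itgam at 0 to 2 reads and Cd3e at 3 to 6 reads per library. Of 6 erythroid markers 5 were tested, edgeR called 2 lower (Hba-a1 and Hba-a2) and DESeq2 3, and the summed level was 22.8 to 30.2 CPM in WT and 7.42 to 14.0 in CKO. Of 10 endothelial markers 1, Erg, was called lower and 0 higher (128 to 166 CPM in WT, 122 to 210 in CKO). Erg was the only one below 0, the other 9 had values above 0, and the median log2 change was 0.29. None of 10 epithelial markers passed in edgeR or DESeq2 (61.4 to 186 CPM in WT, 80.8 to 150 in CKO). The same held for 7 pericyte markers (325 to 376 CPM in WT, 367 to 488 in CKO). At an unadjusted edgeR p under 0.05 there were 0 epithelial and 2 pericyte markers. Of those 2, 1 was lower (14.3% of the list, against 12.1% of all tested genes) and 1 higher (against 13.1%). No marker of these lists was without reads in all 4 libraries. The summed level of the 40 members was 1410 and 1490 CPM in WT A and WT B and 1180 and 1260 in CKO A and CKO B. The part of these other cells in the values of the mitosis genes was not tested.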

How the data were processed

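RNA-seq was available for 2 WT and 2 CKO samples. The deposited table holds raw counts for each gene, per the file headers. The submitters' processing notes name edgeR 3.28.1, STAR, Trimmomatic 0.36, cutadapt 2.5 and FastQC 0.11.8, and build GRCm38.p6; how reads were counted is not given in the sources used here. The authors' deposited log2 fold changes and p-values are quoted only where named. A further 4 columns of per-sample values were not used. Count columns named Control and Mutant were read as WT and CKO. They carry no replicate number. The labels do not say that libraries came from separate animals; Y-linked reads in 1 of the 2 CKO libraries show it for CKO, while for WT the spread between libraries may be technical.

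The whole table was fitted in R 4.3.3 with edgeR 4.0.16 (filterByExpr with a minimum count of 10, TMM, glmQLFit and glmQLFTest with robust estimation, Benjamini-Hochberg adjustment over 15210 genes). CPM are TMM-scaled, and 1 read equals 0.0377 to 0.0439 CPM. A standard error is the size of the log2 change over the root of its F statistic, and 95% intervals use the moderated degrees of freedom. Exon lengths and coordinates are those of GENCODE M21 (GRCm38), found by Ensembl identifier for the 40 members, and start windows from RefSeq. DESeq2 1.42.0, limma-voom (limma 3.58.1) and other settings were run as alternatives. The tests were also tried on simulated counts, drawn with less spread between replicates than the common spread fitted to these libraries. That trial does not show which changes these libraries could detect. Members, roles and lists were chosen with earlier results of these data known. The rule for named genes gives values of every library for members with an unadjusted p under 0.05 and for the 3 lowest p and the highest change of each role, and names the 3 lowest p of each related list, Dnmt1, Pdgfrb and 4 regulators; the other members are given by their log2 change.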

Additional observations from a re-analysis of the deposited data

How the results depend on the processing

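No paired analysis was possible because the count columns carry no replicate number. The median log2 change of the members stayed below 0 under each alternative, from -0.29 to -0.14 when 1 library was left out. The count of lower members, 0 in the fit of all libraries, was 1 in DESeq2 (Mki67), 1 with library size alone (Mki67, adjusted p = 0.0496) and 1 with no filter on low counts (Cenpf, adjusted p = 0.0467), and between 0 and 1 when a library was left out (Cdk1 without CKO A, Cenpf without CKO B). In all genes 1157 calls became 2459 with no filter and 241 at an adjusted p under 0.01, and 339 (without WT B), 603 (without WT A), 1055 (without CKO B) or 1842 (without CKO A) with 3 libraries, where the lone sample of a genotype is assumed to vary like the others. Leaving out 1 library in turn, 25 members kept values below 0, and Aurka and Cdc20 kept values above 0. The other 13 reached or crossed 0. Without 1 library the log2 change ranged from -0.08 to 0.07 for Cdca8, -0.46 to 0.04 for Ect2, -0.17 to 0.08 for Anln, -0.21 to 0.07 for Ckap2l, -0.11 to 0.27 for Kif20a, -0.17 to 0.19 for Cdc25c, -0.11 to 0.34 for Cdca3, -0.35 to 0.06 for Ttk, -0.24 to 0.03 for Ccnb2, -0.16 to 0.06 for Ube2c and -0.30 to 0.05 for Ndc80. With no filter Cdc25c and Cdca8 stood at 0.02 each. The cause of these moves was not tested. With 2 libraries per genotype and 96 to 144 reads of Cdc25c, changes under 1.5-fold were within the intervals of many members.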
